A study of Mus musculus with 8 samples.

Results

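The 9 genes followed here belong to the inhibitory receptor system of T cells, and their transcripts were measured through 8 single-cell RNA libraries from the pancreas of diabetic NOD mice. They are 7 surface receptors (Pdcd1, Ctla4, Lag3, Tigit, Havcr2, Btla and Cd160), the ectonucleotidase Entpd1 and the nuclear protein Tox, which makes 9 genes of the 32285 in the deposited matrices. They were chosen by name, with no measured value in the rule. Their unique molecular identifier (UMI) counts, each UMI standing for 1 captured RNA molecule, were read in 3 sets of T cells. A T cell had at least 2 UMIs over Cd3d, Cd3e, Cd3g, Trac, Trbc1 and Trbc2. CD4-gated cells had a Cd4 UMI and none of Cd8a or Cd8b1, CD8-gated cells had the reverse, and Foxp3-positive cells had at least 1 UMI of Foxp3, whatever their Cd4 or Cd8 counts.

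NOD is a mouse strain that becomes diabetic spontaneously as its T cells destroy the insulin-producing islets. All 8 libraries were labelled as pancreatic T cells of spontaneously diabetic female NOD mice, sorted for CD45, CD3 and the T cell receptor beta chain, frozen, and then taken through 10x Genomics 3' library preparation together. Age was 3-4 months in one label field and 3-5 months in another. It was read here as 3-4 months for active and onset and as 3-5 months for the vehicle and PPCA libraries. One library came from mice with active disease (over 600 mg/dl glucose in blood), and another from mice at onset (250 mg/dl), both harvested on day 1. Mice at 200-300 mg/dl received PPCA, which is the MDM2 inhibitor nutlin-3 (50 mg/kg) with the Wee1 inhibitor MK-1775 (25 mg/kg), or the vehicle alone (30% ethanol, 5% Tween 20, 65% PEG300), every day, and 1 library of each arm was made on day 2, day 3 and day 4. The number of mice behind a library was not given in the labels, so p-values measure the spread between libraries.

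The libraries held 36934580 to 67603740 UMIs each and 80470 cell barcodes in all, of which 77486 passed the cell filters, 70970 remained once called doublets were removed and 70352 were T cells. The CD4 gate held 27471 cells (2645 to 4755 per library), the CD8 gate 22139 (1623 to 4466) and the Foxp3-positive set 2567 (212 to 483). Another 20742 T cells were in neither gate. Of the Foxp3-positive cells, 1128 were also in the CD4 gate, 251 were in the CD8 gate and 1188 were in neither. Pairs of libraries shared 14 to 41 barcodes.

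The sex label did not match the transcripts of 4 libraries. Xist, transcribed from the inactive X chromosome of females, summed to 613, 602, 537 and 416 CPM (UMIs of the gene per 1000000 UMIs) in the T cells of the active, onset, PPCA day 2 and vehicle day 4 libraries and to at most 0.758 in the other 4. Those 4, vehicle of days 2 and 3 and PPCA of days 3 and 4, had 186 to 273 CPM of 4 Y-linked genes, against at most 0.189 elsewhere. The PPCA and vehicle libraries therefore differed in this marker on days 2 and 4 and matched on day 3. Whether libraries were exchanged was not tested; PPCA and vehicle are named here as labelled, and an exchange between arms would change what each of their differences means. The day 4 libraries stood apart in a second way: a list of 10 genes of tissue dissociation and early response reached 5987 CPM (vehicle) and 9383 CPM (PPCA) in CD4-gated cells, against 1438 to 3319 in the other 6 libraries.

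Inhibitory receptors restrain T cells that have seen antigen. PD-1 (Pdcd1) and BTLA recruit phosphatases, CTLA-4 takes the B7 ligands away from CD28, LAG-3 binds MHC class II, and TIGIT competes with CD226 for CD155. Most of them are induced by antigen receptor signalling through factors such as NFAT, AP-1 and the NR4A proteins, several are carried constitutively by regulatory T cells, and cells that stay in contact with antigen come to hold many of them together with the nuclear protein TOX, in the state called exhaustion. In autoimmune islets these pathways are known to restrain the T cell attack.

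Pdcd1, Ctla4 and Havcr2 were found together in cells, and Pdcd1 and Ctla4 had PPCA values above vehicle, so the 250 bases before their start sites are printed here, from RefSeq promoters on build GRCm38.p6. The RefSeq table matched 7 of the 9 genes, with 9 promoters between them. Lag3 and Tox were not matched. Each sequence runs 5′ to 3′ on the strand of its gene, and capitals mark matches to the core of the NFAT motif, GGAAA, or to the AP-1 motif, TGANTCA, on either strand.
Pdcd1, chr1:94052554-94052803, minus strand: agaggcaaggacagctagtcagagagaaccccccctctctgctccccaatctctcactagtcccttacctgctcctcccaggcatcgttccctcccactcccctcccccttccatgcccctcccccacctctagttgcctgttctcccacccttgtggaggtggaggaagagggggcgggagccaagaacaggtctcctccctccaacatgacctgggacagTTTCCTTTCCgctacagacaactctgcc
Ctla4, chr1:60908775-60909024, plus strand: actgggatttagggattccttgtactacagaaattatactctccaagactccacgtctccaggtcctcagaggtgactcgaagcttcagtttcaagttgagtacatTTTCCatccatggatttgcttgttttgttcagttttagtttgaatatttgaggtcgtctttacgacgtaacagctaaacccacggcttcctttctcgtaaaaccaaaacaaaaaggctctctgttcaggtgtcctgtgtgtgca
Havcr2, chr11:46454681-46454930, plus strand: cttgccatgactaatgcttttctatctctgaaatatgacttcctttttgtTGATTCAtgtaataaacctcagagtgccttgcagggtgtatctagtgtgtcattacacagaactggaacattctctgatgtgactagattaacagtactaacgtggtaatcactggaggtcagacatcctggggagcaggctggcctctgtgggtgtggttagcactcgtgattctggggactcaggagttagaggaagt
The Pdcd1 sequence held 2 adjacent NFAT cores close to the start site, Ctla4 held 1, and Havcr2 held none but an AP-1 match. The NFAT core was in 5 of the 9 promoters, a string so short that 55.6% of 32851 promoters of this length hold it. The AP-1 motif was in 1 of the 9 and in 6.75% of all promoters. The cyclic AMP response element, TGACGTCA, and the NR4A element, AAAGGTCA, were in 0 of the 9 and in 1.55% and 1.34% of all. A match describes these letters in this window and is not a binding site.

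Levels below are CPM of the UMIs summed over the cells of a gate in 1 library. Ctla4 encodes the receptor that strips CD80 and CD86 from antigen-presenting cells. In CD4-gated cells it stood at 15.8 CPM in the active library, 22.7 at onset, 31.3, 28.2 and 61.1 under vehicle on days 2, 3 and 4, and 50.0, 26.2 and 210 under PPCA. In CD8-gated cells the same order gave 6.54 and 39.1, then 16.1, 8.80 and 60.0 for vehicle, and 23.9, 15.0 and 115 for PPCA. In Foxp3-positive cells it gave 189 and 240, then 271, 230 and 557, and 269, 197 and 1043. The day 4 libraries were the highest of the 8 in each of the 3 sets, and PPCA day 4 was above vehicle day 4 in each.

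Pdcd1 encodes PD-1. Its CD4-gated level was 6.13 CPM in active, 6.25 at onset, 10.8, 6.23 and 2.98 under vehicle on days 2, 3 and 4, and 20.8, 7.84 and 10.4 under PPCA. In CD8-gated cells it was 6.69 and 13.8, then 12.8, 3.84 and 3.66, and 30.3, 5.75 and 6.98. In Foxp3-positive cells it was 32.1 and 28.0, then 52.4, 28.3 and 15.9, and 70.2, 30.3 and 22.6. The PPCA library of day 2 was the highest of the 8 in all 3 sets and the vehicle library of day 4 the lowest, so that arms overlapped while each PPCA library stood above the vehicle library of its own day in these unscaled CPM. In TMM-scaled CPM the Foxp3-positive libraries of day 3 were at 30.4 under PPCA and 30.7 under vehicle (log2 ratio -0.01).

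Lag3, a CD4-like receptor for MHC class II, was at 9.33 CPM (active), 5.85 (onset), 8.48, 5.86 and 9.21 (vehicle, days 2, 3 and 4) and 20.2, 6.97 and 28.9 (PPCA) in CD4-gated cells. In CD8-gated cells it was at 10.0 and 18.7, then 18.3, 6.12 and 12.6, and 20.1, 8.79 and 20.7. In Foxp3-positive cells it was at 35.3 and 19.9, then 35.7, 15.8 and 42.9, and 65.5, 40.9 and 76.0. Day 3 was the low day of both arms in each gate, and in Foxp3-positive cells only the PPCA library of day 3 lay below a vehicle library.

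Entpd1 encodes CD39, which degrades extracellular ATP on the way to adenosine. Its CD8-gated level was 4.43 CPM in active, 17.1 at onset, 8.95, 2.90 and 4.49 under vehicle and 23.6, 3.79 and 7.57 under PPCA. The 2 highest CD8-gated libraries were thus PPCA day 2 and onset, the same 2 as for Havcr2, which encodes TIM-3, a mark of terminally differentiated T cells. In that gate Havcr2 was at 1.26 CPM in active and 8.37 at onset, at 2.59, 1.03 and 2.82 in the vehicle libraries, and at 9.29, 1.49 and 2.36 in those of PPCA. These 2 libraries also had the highest sums of 3 gamma delta T cell genes in CD8-gated cells, 107 CPM for PPCA day 2 and 76.1 for onset against 18.0 to 39.9 in the others, although the sort required the T cell receptor beta chain. Tcrg-C2 made up 94.7 and 58.9 CPM of these 2 sums. The delta chain gene Trdc was at 5.07 and 5.20 CPM, within its range of 3.91 to 8.20 in the others. The part of gamma delta T cells in the levels was not tested. Myeloid cells can carry both transcripts: in CD8-gated cells 6 myeloid genes summed to 160 CPM in PPCA day 2 and 152 at onset, the highest of the 8, against 112 to 131 in the others. Cst3 made up 110 to 154 CPM of these sums, Fcer1g was at 5.07 and 3.09 CPM in the same 2 libraries and at most 2.02 in the others, and the macrophage gene Adgre1 was at 0 in all 8. Lyz2 was at 0.338 and 0.0882 CPM in the 2 (0 to 1.30 in the others), Csf1r at 0.169 and 0 (0 to 0.199), and C1qa at 0 in both. Lyz2, Csf1r and C1qa were among the 6 B cell and myeloid genes over which a T cell could hold at most 1 UMI. The part of myeloid cells in the levels was not tested.

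The other 4 genes differed in how far they moved. Tigit was sparse, at 0.434 to 5.27 CPM in CD4-gated and 0.536 to 6.54 in CD8-gated cells, with PPCA day 4 highest in both. Btla, the receptor of the herpesvirus entry mediator, was at 32.2 to 48.1 CPM in CD4-gated cells of days 2 and 3, active and onset, and at 19.3 and 24.2 on day 4. Cd160, which shares that ligand, spanned 13.4 to 28.8 CPM in CD8-gated and 1.08 to 4.30 in CD4-gated cells without overlap. Tox kept within 55.0 to 98.8 CPM in CD4-gated and 56.1 to 92.2 in CD8-gated cells.

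**Figure D1:**
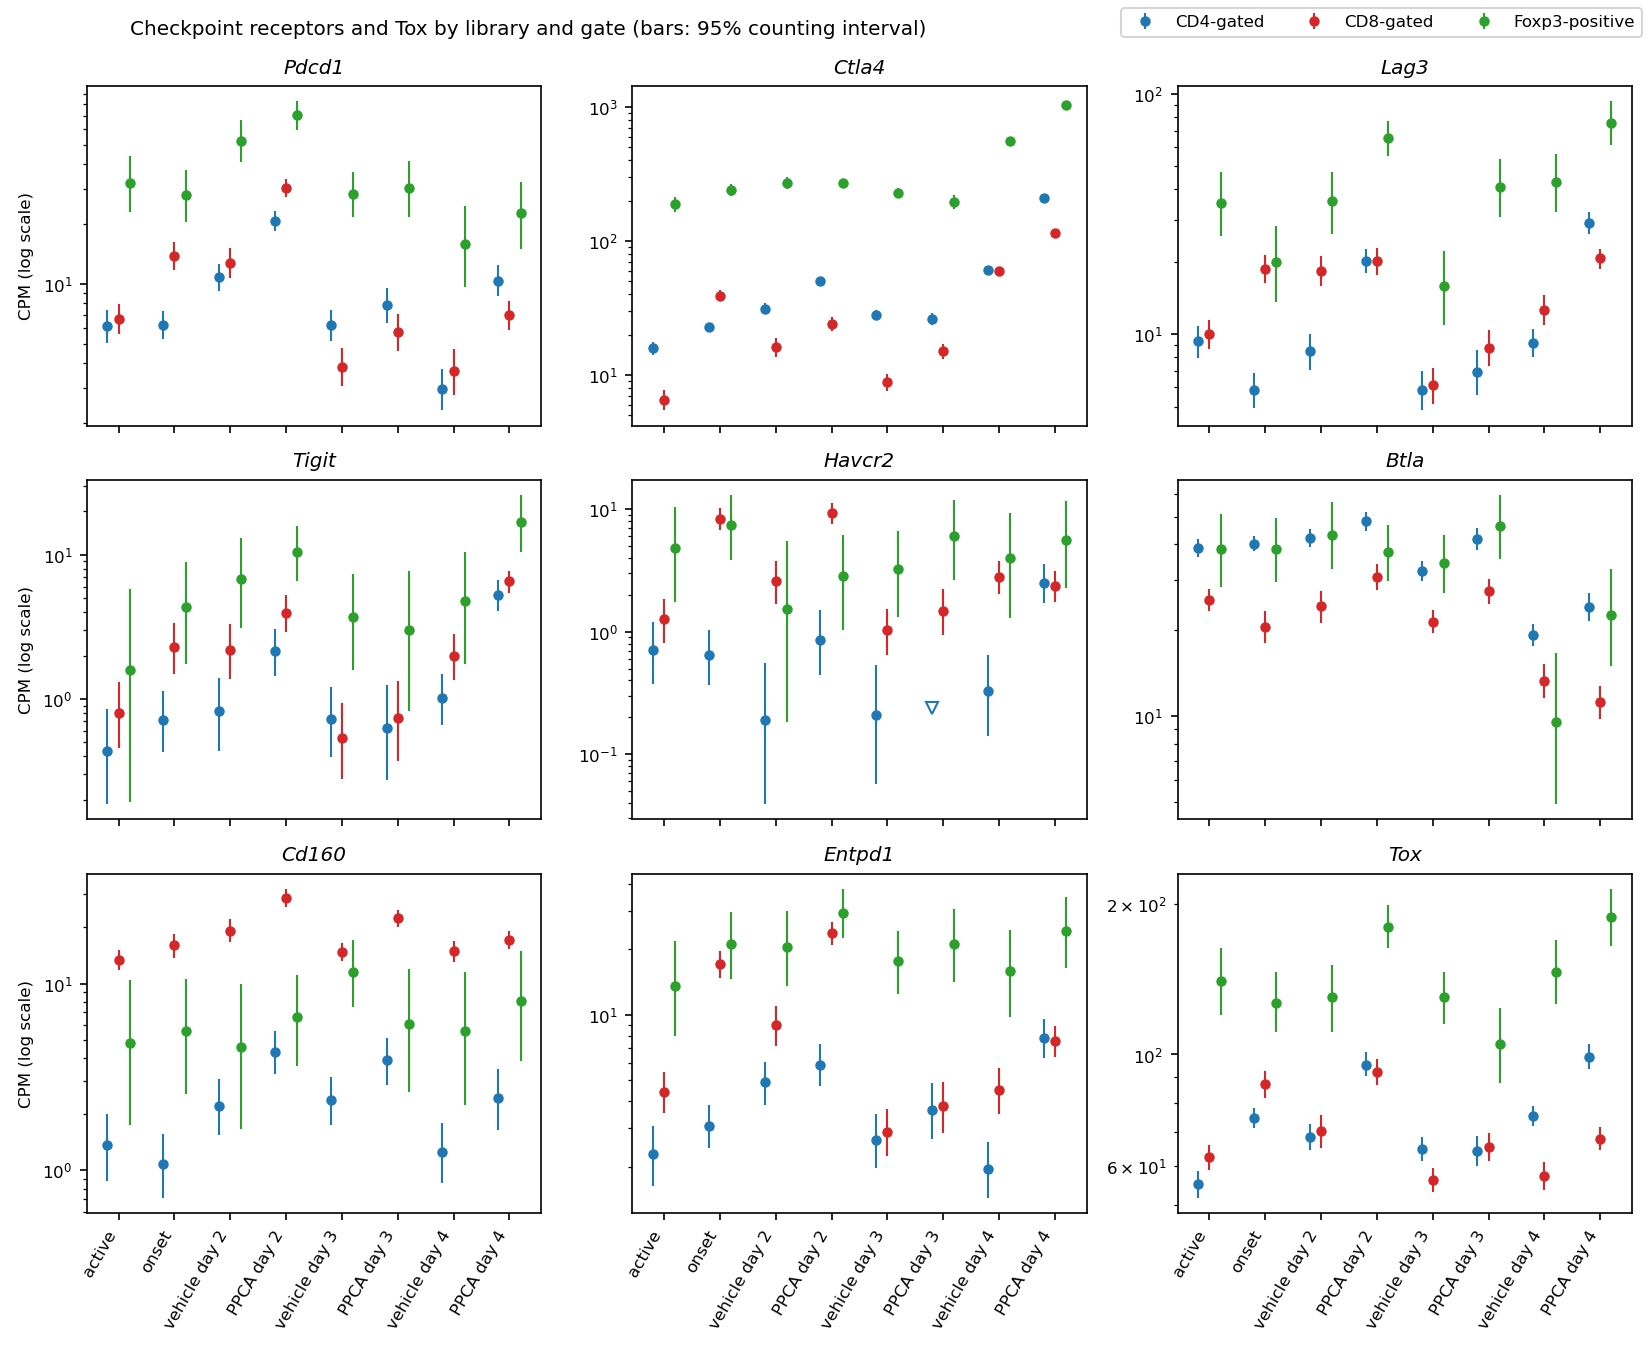
CPM of each gene (log axis, its range set for each panel) in CD4-gated, CD8-gated and Foxp3-positive cells of the 8 libraries, with 95% Poisson intervals that cover counting error only; the open triangle is the level of 3 UMIs in the 1 library and gate with no UMI. Foxp3-positive cells lie highest for Pdcd1, Ctla4, Lag3 and Tox in every library, CD8-gated cells lie highest for Cd160, and Ctla4 reaches 1043 CPM in Foxp3-positive cells of PPCA day 4.

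Shares of cells give the same counts cell by cell. After each cell was thinned to 2000 UMIs, Ctla4 was detected in 2.53 to 8.26% of CD4-gated cells in 7 libraries and in 21.0% in PPCA day 4 (28.0% unthinned). Pdcd1 was detected in 0.331 to 2.81% of CD4-gated and 0.527 to 5.89% of CD8-gated cells (1.23 to 5.47% and 1.57 to 9.77% unthinned). Tox was detected in 9.09 to 17.1% and 10.6 to 16.2% (23.2 to 29.5% and 22.7 to 33.5% unthinned). Median depths were 3851 to 6160 UMIs in the CD4 gate and 4274 to 7240 in the CD8 gate. Free RNA can give a cell a UMI of a gene it does not express, and the only cell type that should lack most of these genes was 34 B cells with a median of 3978 UMIs. Of them 0 had a UMI of Pdcd1, Ctla4, Tigit, Havcr2, Cd160 or Tox, which allows a share of up to 8.82% at 3 counts of 34, or 10.3% by the exact 95% binomial interval, and 1 had Lag3. The first of these limits lies above most of the shares of Pdcd1, Lag3, Tigit, Havcr2 and Cd160 in the CD4 and CD8 gates, so levels are compared between gates and libraries instead. B cells themselves carry BTLA and CD39 (19 and 4 of the 34 had a UMI) and give no background for those.

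CD8-gated and CD4-gated cells of the same library were compared first, with the library as a block. Cd160, Havcr2, Entpd1 and Tigit were higher in CD8-gated cells, and Btla and Ctla4 were lower. Havcr2 and Tigit reached the low-count filter's cutoff of 0.637 CPM, needed in 8 libraries, in only 4 and 6 CD4-gated libraries, so that they were tested with the help of the gate where they are high, and they are left out of the count. Of the other 7 genes 4 passed an adjusted p of 0.05, 2 higher and 2 lower, against 46.0% of the 11571 genes tested (23.2% higher and 22.8% lower). Their median log2 difference was 0.18, against 0.00 over all genes. Cd160 was 8.36-fold higher (log2 fold change 3.06, SE 0.12, adjusted p 1.01e-11 by edgeR's quasi-likelihood test with Benjamini-Hochberg adjustment) and was higher in 8 of 8 libraries. Havcr2 differed by 2.45 (SE 0.41, adjusted p 0.000137), higher in 7 of 8, and Entpd1 by 1.11 (SE 0.24, adjusted p 0.00141), higher in 8 of 8. Tigit differed by 0.79 (SE 0.19, adjusted p 0.00293), higher in 7 of 8.

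Btla was 1.60-fold lower in CD8-gated cells (log2 fold change -0.68, SE 0.058, adjusted p 1.52e-07), in all 8 libraries. Ctla4 differed by -0.60 (SE 0.18, adjusted p 0.0138), with 2 of 8 libraries the other way. Lag3 (0.40, SE 0.17, adjusted p 0.0761), Pdcd1 (0.18, SE 0.16, adjusted p 0.386) and Tox (-0.05, SE 0.067, adjusted p 0.558) did not pass. Tigit missed the threshold with gates of at least 2 UMIs (0.57, adjusted p 0.0616), and Tigit (adjusted p 0.453) and Ctla4 (0.665) missed it without the library block. Lag3 passed with no low-count filter (0.39, adjusted p 9.35e-09), without day 4, an alternative chosen after seeing the data (0.58, adjusted p 0.0212), and without PPCA day 4 alone (0.57, adjusted p 0.0103).

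Genes that work with these receptors were compared in the same way. The other inhibitory receptors apart, each list's count stands against the 23.2% higher and 22.8% lower of all genes. Among 10 other inhibitory receptors, 7 were higher and 2 lower in CD8-gated cells, led by Klrc1, the NKG2A chain (6.52, adjusted p 1.79e-13), Cd38, another ectoenzyme (2.17, adjusted p 1.33e-07), and Klrg1 (1.64, adjusted p 0.00522), with Cd200r1 (-1.78, adjusted p 6.69e-10) and Cd5 (-0.58, adjusted p 5.15e-09) lower. Of 9 costimulatory receptors 2 were higher, Cd226 (1.56, adjusted p 8.88e-14), the activating rival of TIGIT, and Cd96 (0.37), and 5 were lower, with Tnfrsf4 (-2.29), Cd28 (-0.79) and Icos (-0.44) the furthest. Of 18 transcription factors 5 were higher, Eomes (3.80), Tbx21 (2.45) and Nr4a2 (1.51) furthest, and 8 were lower, Maf (-2.66), Ikzf2 (-1.38) and Nr4a1 (-1.06) furthest. Of 6 ligands tested, 1 was higher (Cd86, 1.85) and 4 lower, Pvr (-1.08), Pdcd1lg2 (-0.50) and Tnfrsf14 (-0.19) furthest. Of 9 signalling genes Ptpn6 was higher (0.26) and 4 were lower, Ptpn11 (-0.24), Pik3r1 (-0.23) and Csk (-0.13) furthest. Of 5 adenosine genes Ada was higher (0.80) and Adk lower (-0.99). As shares of the genes tested, 66.7% of ligands, 55.6% of costimulatory receptors, 44.4% of transcription factors and 44.4% of signalling genes were lower. Of the other inhibitory receptors 70.0% were higher, but 4 of those 7, Klrc1, Klrg1, Cd244a and Lilrb4a, did not reach the filter in the CD4 gate alone. They were tested with the help of the gate where they are high, so this share is not set against the background. The shares of transcription factors (27.8%), costimulatory receptors (22.2%) and adenosine genes (20.0%) that were higher lay near the background. Tbx21, among the higher transcription factors, did not reach the filter in the CD4 gate alone either.

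Foxp3-positive cells of the CD4 gate were then compared with Foxp3-negative cells of the same gate and library. Foxp3 defines regulatory T cells, and Ctla4, Pdcd1, Lag3 and Tox were higher in the cells with its transcript, Ctla4 10.6-fold and Pdcd1 5.61-fold, while Btla did not pass. The background was 30.0% of 10477 genes, with 14.7% higher and 15.3% lower. The log2 fold change of Ctla4 was 3.40 (SE 0.14, adjusted p 4.49e-21). Pdcd1 differed by 2.49 (SE 0.17, adjusted p 7.35e-15) and Lag3 by 2.04 (SE 0.16, adjusted p 2.14e-13). Tox had the smallest difference that passed, 0.93 (SE 0.071, adjusted p 1.80e-13).

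Btla lay at -0.27 (SE 0.11, adjusted p 0.0538). Btla passed in 4 alternative analyses, among them those without the active library (adjusted p 0.0380) and without PPCA day 3 (0.0441), with adjusted p values from 0.0246 to 0.482 over all of them. The other 4 genes are set apart and not counted, because Foxp3-negative cells alone did not carry them past the filter, a cutoff of 1.55 CPM in 8 libraries. Their fitted values were 3.49 for Havcr2 (SE 0.52, adjusted p 1.43e-06), 2.80 for Tigit (SE 0.37, adjusted p 1.24e-07), 2.70 for Entpd1 (SE 0.24, adjusted p 1.68e-11), whose product CD39 is a known mark of regulatory T cells, and 0.45 for Cd160 (SE 0.40, adjusted p 0.461). The cutoff was reached in 1 Foxp3-negative library by Havcr2 and Tigit (PPCA day 4), in 5 by Cd160 and in 6 by Entpd1, and in 7, 8, 7 and 8 Foxp3-positive ones. In Foxp3-negative cells Havcr2 was at 0 to 0.697 CPM and Tigit at 0.332 to 1.32 in the other 7 libraries, and in Foxp3-positive cells they rested on 0 to 6 and 1 to 13 UMIs per library. Without PPCA day 4, Havcr2 was no longer tested, and with gates of at least 2 UMIs neither it nor Tigit or Cd160 was. The median depth was 3523 to 5072 UMIs in Foxp3-positive and 3854 to 6182 in Foxp3-negative cells, and the part of depth in the differences was not tested. A Foxp3-negative cell may still be a regulatory T cell whose Foxp3 molecules were not captured.

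In the Foxp3 comparison, where 14.7% of all genes were higher and 15.3% lower, 9 of 9 costimulatory receptors were higher, led by Tnfrsf4 (3.49, adjusted p 3.30e-21), Tnfrsf9 (3.34) and Icos (2.06). Of 18 transcription factors 14 were higher, with Ikzf2 (4.39), Tox2 (2.86) and Maf (2.58) furthest, and 3 were lower, the memory-associated factors Tcf7 (-0.99) and Bach2 (-0.41) and the factor Id2 (-0.74). Nt5e (2.74, adjusted p 1.82e-18), whose product CD73 takes the AMP made by CD39 on to adenosine, led 3 of 5 adenosine genes that were higher, with Slc29a1 (0.99) and Adora2a (0.60). Of 6 ligands tested 3 were higher, Pdcd1lg2 (2.57), Cd86 (2.18) and Cd274 (0.86), and Tnfrsf14, the ligand of BTLA, was lower (-0.74, adjusted p 0.00326). Of 7 other inhibitory receptors tested 4 were higher, Cd38 (2.78), Lilrb4a (2.39) and Cd101 (1.23) furthest, and Lair1 was lower (-1.39). Those named, 4 of the 5 called, did not reach the filter in the set where they are lower, so this list is not set against the background. Of 9 signalling genes 4 were higher, Sh2d1a (0.90) and Ptpn11 and Inpp5d (0.35 each) furthest, and Ptpn6, which encodes the phosphatase SHP-1, was lower (-0.33). The median log2 difference was 0.92 over the transcription factors and 0.54 over the costimulatory receptors, against -0.03 over all genes tested. Pdcd1lg2 among the 3 higher ligands, and Tox2, Nr4a2 and Tbx21 among the 14 higher transcription factors, did not reach the filter in the lower set alone either. The counts of these lists thus rest partly on genes tested with the help of the set where they are high.

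The few Foxp3-positive cells carried a large part of the receptor transcripts of the CD4 gate. They made up 2.20 to 6.58% of CD4-gated cells and held 19.1 to 49.5% of its Ctla4 UMIs, 10.9 to 31.6% of Pdcd1 and 13.5 to 45.1% of Entpd1. They held 1.48 to 6.57% of Btla, about their share of cells. For Ctla4 the lowest shares were those of day 4. Under vehicle on day 4 they held 22.3% of the Ctla4 UMIs at 2.20% of the cells, the fewest of the 8 libraries, and under PPCA 19.1% at 3.77%. The other libraries had 34.7 to 49.5% at 3.26 to 6.58% of the cells.

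**Figure D2:**
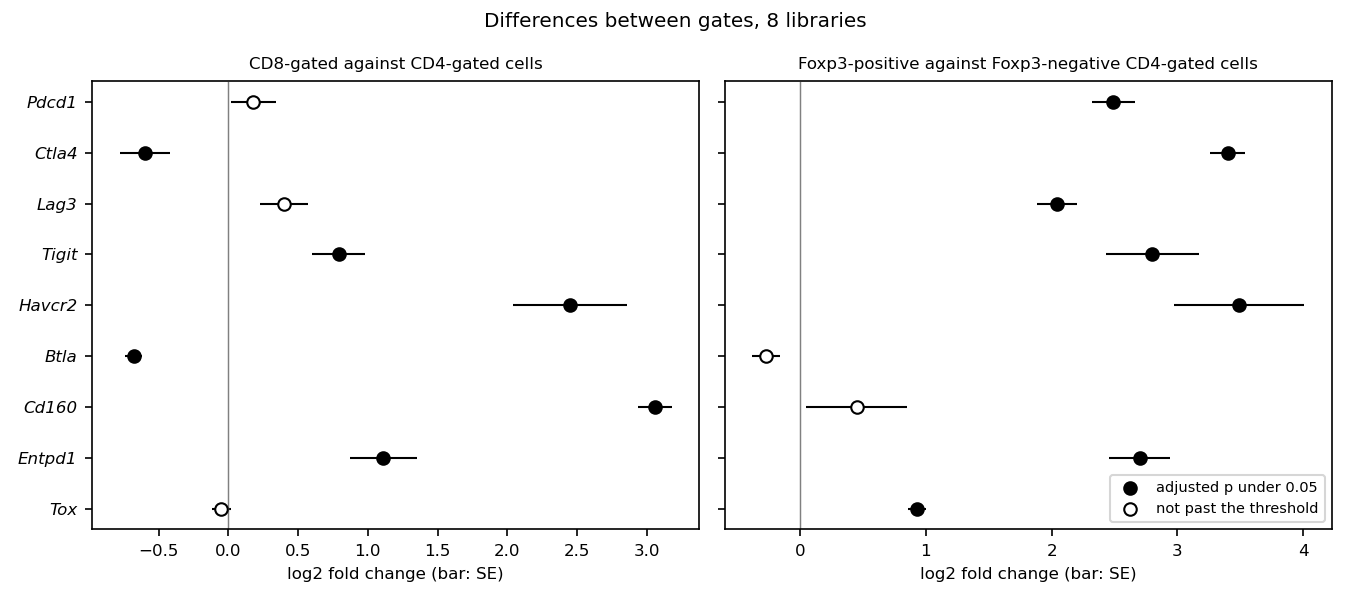
Log2 fold change and SE of each gene between CD8-gated and CD4-gated cells and between Foxp3-positive and Foxp3-negative CD4-gated cells, over 8 libraries; filled points have an adjusted p under 0.05. Cd160 is the furthest to the right between the CD8 and CD4 gates (3.06), and in the Foxp3 comparison Ctla4, Pdcd1, Lag3 and Tox lie at 3.40, 2.49, 2.04 and 0.93; Havcr2, Tigit, Entpd1 and Cd160 there, and Havcr2 and Tigit between the gates, passed the low-count filter only with the libraries where they are high.

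PPCA was compared with vehicle in each gate, with the day as a block, to ask what a potentiator of p53 with a Wee1 inhibitor did to the T cells that stayed in the pancreas. The fitted log2 fold change was above 0 for every gene tested, 8 of 8 in CD4-gated, 9 of 9 in CD8-gated and 6 of 6 in Foxp3-positive cells, against 50.1%, 50.6% and 51.3% of all genes tested. The direction did not hold for each of them: without day 2, Havcr2 (-0.01) and Btla (-0.03) in CD8-gated cells and Tox (-0.03) in Foxp3-positive cells fell below 0, as did Ctla4 in Foxp3-positive cells without day 4 (-0.17) and Tox (-0.13) and Btla (-0.00) there with gates of at least 2 UMIs. None passed the adjusted threshold in any gate by edgeR's quasi-likelihood test or by limma-voom, and 1, Ctla4 in CD8-gated cells, passed by DESeq2; of all genes tested 0, 0 and 0.0711% passed by edgeR. At an unadjusted p under 0.05 and in the higher direction stood 5 of 8, 6 of 9 and 1 of 6, against 3.50%, 4.44% and 3.48% of all genes. The median over the genes tested was 0.80, 0.64 and 0.28 on the log2 scale, against 0.00, 0.00 and 0.01 over all genes. Tigit in CD8-gated cells reached the filter's cutoff of 0.658 CPM, needed in 3 libraries, in 3 PPCA but 2 vehicle libraries. Without it the CD8-gated counts are 8 of 8 above 0 and 5 of 8 at an unadjusted p under 0.05, with a median of 0.51. These genes tend to share cells, so that their values are not independent of each other.

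Of the CD8-gated genes Ctla4 had the lowest adjusted p by edgeR's quasi-likelihood test (0.263). Its log2 fold change was 0.69 (SE 0.11), or 1.62-fold, and it was higher on 3 of 3 days. Pdcd1 was at 0.86 (SE 0.18, adjusted p 0.389), Tigit at 1.09 (SE 0.33, adjusted p 0.568) and Entpd1 at 0.81 (SE 0.22, adjusted p 0.535), each higher on 3 of 3 days. Cd160 and Lag3 were at 0.38 each, Havcr2 at 0.64 (SE 0.40), Tox at 0.20 and Btla at 0.07. Leaving out Tigit, 6 of 8 were higher under PPCA on each day, against 15.6% of genes. Alternatives that moved a call were the one with no low-count filter, in which Ctla4 (adjusted p 0.000745), Pdcd1 (0.00358) and Entpd1 (0.0207) passed, DESeq2, in which Ctla4 passed (adjusted p 0.0120), the analysis without day 4, in which Pdcd1 passed (0.0342), and the analysis with Xist status as a factor, in which Pdcd1 (0.0228) and Ctla4 (0.00316) passed. The fits without day 4 and with Xist status left fewer degrees of freedom for the spread between libraries than the main fit.

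In CD4-gated cells the fitted values were 1.34 for Tigit (SE 0.50, adjusted p 0.739), 1.03 for Lag3 (SE 0.27, adjusted p 0.645), 0.93 for Pdcd1 (SE 0.28, adjusted p 0.713), 0.83 for Entpd1, 0.78 for Cd160, 0.74 for Ctla4 and 0.21 for both Btla and Tox. Havcr2 was too sparse to test. With no low-count filter Lag3 (adjusted p 0.000161), Pdcd1 (0.00175) and Ctla4 (0.00632) passed, and no other alternative moved a call in this gate. Of the 8 tested, 5 were higher under PPCA on each day, against 14.2% of genes. The size depended on the day: the median over the genes tested was 0.78 on day 2, 0.12 on day 3 and 1.68 on day 4. The Foxp3-positive cells of the gate, which carry much of its Ctla4, were 6.58, 4.65 and 3.77% of cells under PPCA on days 2, 3 and 4 and 4.98, 5.20 and 2.20% under vehicle, and 3 regulatory T cell genes summed to 168, 110 and 95.5 CPM against 103, 119 and 52.3. With those cells left out, an alternative chosen after seeing the data, the values were as large: the median was 0.99 and all were above 0 over the 7 genes that reach the filter in the vehicle libraries alone (not Tigit), and 0 passed edgeR's quasi-likelihood test, as did 0 of 11456 genes (769 at an unadjusted p under 0.05), with Lag3 at 1.16 (SE 0.28, adjusted p 0.561), Entpd1 at 1.09, Pdcd1 at 1.00 and Ctla4 at 0.99. Day 3, the day on which both libraries had the same Xist status, had the smallest median in all 3 gates (0.34 in CD8-gated and 0.07 in Foxp3-positive cells).

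In Foxp3-positive cells Lag3 was at 0.96 (SE 0.18, adjusted p 0.0690), higher by 0.88, 1.26 and 0.82 on days 2, 3 and 4. It passed with no low-count filter (adjusted p 0.000537), without day 4 (0.0111) and with Xist status as a factor (0.0185), with a range of 0.000537 to 1.000 over all alternatives. Entpd1 was at 0.42, Pdcd1 at 0.30, Btla at 0.27, Ctla4 at 0.21 and Tox at 0.15, and 2 of the 6 were higher on each day, against 15.2% of genes. Tigit, Havcr2 and Cd160 were too sparse to test there. The difference between the PPCA effects of the CD8 and CD4 gates passed for 0 of the 9 genes by edgeR, DESeq2 or limma-voom (0.00863% of all genes passed by edgeR), and 1 had an unadjusted p under 0.05 (3.66% of all genes), Lag3, at -0.71 (SE 0.24, p 0.0113, adjusted p 1.00), which passed with no low-count filter (adjusted p 0.00157). Havcr2 was at -1.20 (SE 0.99), Cd160 at -0.40, Tigit at -0.26, Ctla4 at -0.22, Btla at -0.13, Tox at -0.01, Pdcd1 at 0.01 and Entpd1 at 0.04, and of these only Cd160 kept its sign under each alternative.

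**Figure D3:**
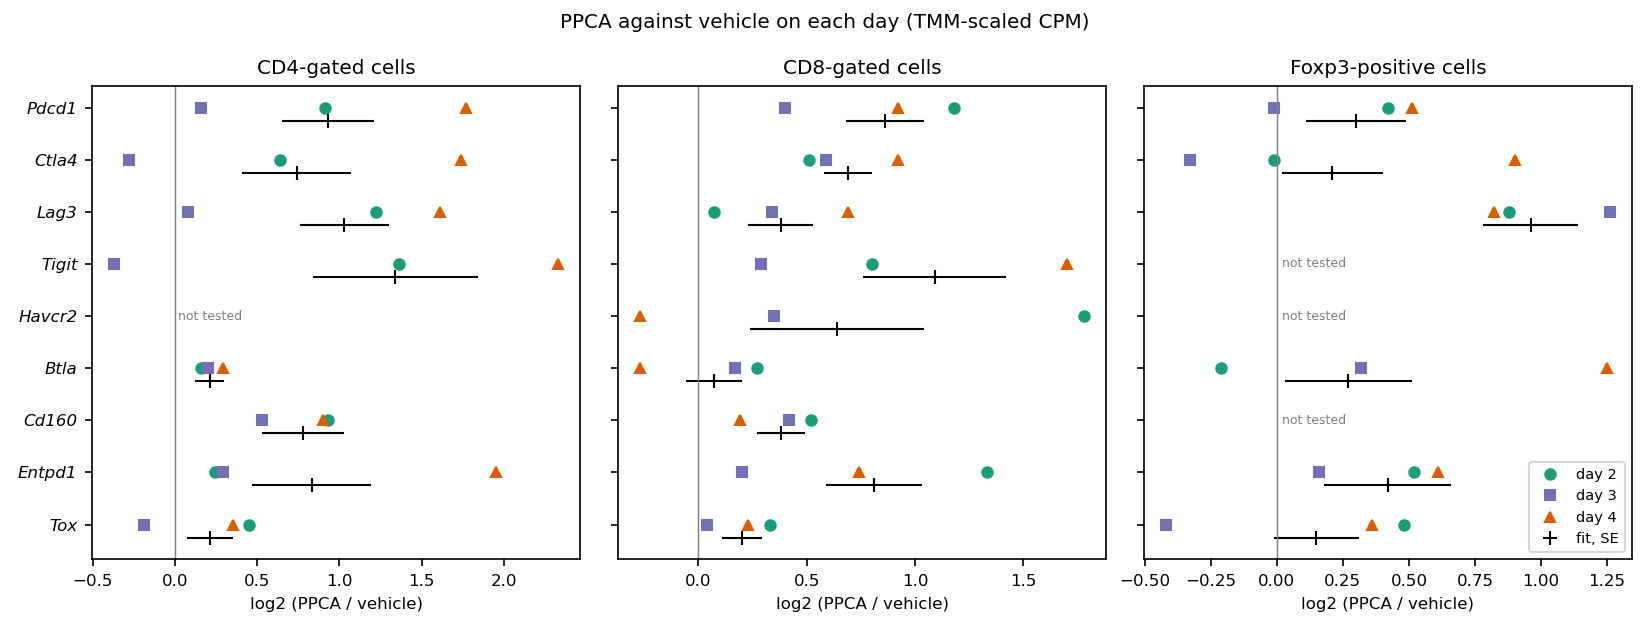
Log2 ratio of PPCA over vehicle on days 2, 3 and 4 (TMM-scaled CPM) and the fitted value with its SE for each gene in the 3 sets of cells; each panel has its own axis. Day 3 (squares) lies nearest to or below 0 for most CD4-gated genes, and the fitted values of Lag3 are 1.03, 0.38 and 0.96 in the CD4, CD8 and Foxp3-positive sets.

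Of the 63 genes in the 6 partner lists 0 passed under PPCA in any gate by edgeR's quasi-likelihood test. At an unadjusted p under 0.05, either way, stood 3 of 6 ligands tested, 1 of 9 costimulatory receptors and 1 of 5 adenosine genes in CD4-gated cells, where 6.59% of all genes did. In CD8-gated cells, at a background of 7.93%, these were 3 of 18 transcription factors, 2 of 7 ligands, 1 of 9 costimulatory receptors, 1 of 10 other inhibitory receptors and 1 of 9 signalling genes. In Foxp3-positive cells, at a background of 6.34%, they were 1 of 5 other inhibitory receptors, 1 of 5 adenosine genes and 1 of 17 transcription factors.

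The highest and lowest gene of each list under PPCA were as follows, as log2 fold changes that did not pass. In CD4-gated cells the ligands ran from Tnfrsf14 (-0.43, p 0.0126, adjusted p 0.713) to Pdcd1lg2, which encodes the PD-1 ligand PD-L2 (0.67, p 0.0361, adjusted p 0.744). The costimulatory receptors ran from Cd27 (-0.09) to Tnfrsf9 (0.56, adjusted p 0.713) and the other inhibitory receptors from Vsir (-0.15) to Lilrb4a (0.57). The signalling genes ran from Ptpn6 (-0.28) to Ptpn11 (0.25), the adenosine genes from Ada (-0.11) to Nt5e (0.63, adjusted p 0.713) and the transcription factors from Id2 (-0.28) to Tox2 (0.90, adjusted p 0.774). In CD8-gated cells the ligands ran from Tnfrsf14 (-0.39) to Cd80, a ligand of CTLA-4 and CD28 (1.13, p 0.0235, adjusted p 0.593). The transcription factors ran from Nr4a1, an early target of T cell receptor signalling (-0.35, p 0.0210, adjusted p 0.593), to Tox2 (0.85, adjusted p 0.632). The other inhibitory receptors ran from Klrg1 (-0.37) to Klrc1 (0.63, adjusted p 0.409) and the signalling genes from Ptpn6 (-0.44, adjusted p 0.455) to Pik3r1 (0.17). The costimulatory receptors ran from Cd27 (-0.04) to Icos (0.31) and the adenosine genes from Adk (-0.08) to Nt5e (0.19). In Foxp3-positive cells the lowest were Tnfrsf14 (-0.28), Icos (-0.11), Klrg1 (-0.90), Bag6 (-0.15), Ada (-0.42) and Eomes (-0.79, p 0.0133, adjusted p 0.639). The highest there were Cd86 (0.43), Tnfrsf9 (0.29), Cd38 (0.28), Sh2d1a (0.11), Slc29a1 (0.43) and Tox2 (0.43). For the difference of the CD8 and CD4 effects the lowest were Cd274 (-0.35), Tnfrsf9 (-0.38), Klrc1 (-0.75), Ptpn11 (-0.19), Nt5e (-0.43) and Tbx21 (-0.75), and the highest Pvr (0.25), Cd226 (0.05), Cd101 (0.47), Pik3r1 (0.06), Ada (0.06) and Prdm1 (0.49), with an adjusted p of 1.00 each.

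The early-response genes of CD4-gated cells were at 1438 CPM under PPCA and 3174 under vehicle on day 2, at 2925 and 3319 on day 3, and at 9383 and 5987 on day 4. They were thus lower under PPCA on days 2 and 3 and higher on day 4, the day with the highest median of the receptors. Their part in the day 4 values was not tested.

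On day 4, in both arms, Ctla4 was above and Btla below the 4 libraries of days 2 and 3 in CD4-gated and in CD8-gated cells. That is 1 gene of 9 in each direction, where 10.3% and 29.0% of all genes in CD4-gated cells, and 9.08% and 28.8% in CD8-gated cells, did the same. The count above is thus near its background and the count below is under it. Foxp3-positive cells had Ctla4 above and Pdcd1 and Btla below, against backgrounds of 8.65% and 17.9%. The high Ctla4 level came with more molecules per positive CD4-gated cell, 1.59 UMIs under vehicle and 2.26 under PPCA on day 4 against 1.23 to 1.49 in the other 6 libraries. Genes of naive-like T cells were high on day 4 as well, 4030 and 3855 CPM in CD4-gated cells against 2447 to 2911.

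Active disease and onset were 1 library each, so the values compare 2 libraries and carry no test. In CD8-gated cells 5 of the 9 genes were at least 2-fold lower in the active library, a size that 2.71% of 10966 genes reached. Havcr2 was 6.66-fold lower (log2 ratio -2.73, 95% counting interval -3.43 to -2.09, 25 against 95 UMIs), Ctla4 5.97-fold lower (-2.58, -2.87 to -2.29) and Entpd1 3.86-fold lower (-1.95, -2.33 to -1.58). Tigit and Pdcd1 were 2.85-fold and 2.07-fold lower. Pdcd1 lay at the limit: its log2 ratio of -1.05 was -0.99 in TMM-scaled CPM and -0.99 with no doublet removal, which left 4 of the 9 at 2-fold. The summed gamma delta genes (39.9 against 76.1 CPM) and the early-response genes (1381 against 2463 CPM) were lower in the active library too, though Trdc was higher (8.20 against 5.20). Myeloid genes (112 against 152 CPM) and pancreas genes (12.9 against 35.9) were also lower in it, and red cell genes were higher (8.91 against 0.0882). The part of these in the ratios was not tested. Lag3 was at -0.90, Tox at -0.49, Cd160 at -0.25 and Btla at 0.32. In CD4-gated cells 0 of 9 were 2-fold lower or higher (0.867% and 1.57% of genes), with Lag3 at 0.67, Cd160 at 0.33, Havcr2 at 0.14, Pdcd1 at -0.03, Btla at -0.05, Entpd1 and Tox at -0.44, Ctla4 at -0.52 and Tigit at -0.73. In Foxp3-positive cells it was again 0 of 9 (2.77% and 5.70%), with Lag3 at 0.83, Pdcd1 at 0.20, Tox at 0.14, Btla at -0.00, Cd160 at -0.22, Ctla4 at -0.34 and Entpd1 and Havcr2 at -0.63. Tigit there had 2 against 7 UMIs and was at -0.86 with the 2 raised to the floor of 3 UMIs used in all these ratios; the levels themselves, 1.60 against 4.35 CPM, lie more than 2-fold apart (95% counting interval of the log2 ratio -4.74 to 0.95).

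The genes occurred together in cells more often than their own frequencies give. At 2000 UMIs per cell, 2.28 to 9.87% of CD4-gated and 2.74 to 9.50% of CD8-gated cells held UMIs of at least 2 of the 9. That was 1.25 to 1.59 times and 1.21 to 1.60 times the share if each gene were spread over cells independently, above 1 in 8 of 8 libraries of each gate. For at least 3 genes the ratios were 4.21 to 10.8 and 3.09 to 7.89. In CD4-gated cells without a Foxp3 UMI the ratios were much alike, 1.17 to 1.52 for at least 2 and 5.12 to 10.4 for at least 3. Among Foxp3-positive cells they were 0.965 to 1.25 and 1.26 to 2.41, with 7 of 8 libraries above 1 for at least 2 genes. A single cell held at most 6 of the 9 in the CD8 gate and 5 in the CD4 gate.

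Pair by pair, 34 of 36 pairs in the CD4 gate and 30 of 36 in the CD8 gate were found together more often than independence gives, 25 in each with a 95% counting interval above 1. Lag3 and Havcr2 were together in 40 CD8-gated cells where 3.21 were due (12.5 times, interval 8.90 to 17.0), above 1 in 8 of 8 libraries. Pdcd1 and Ctla4 were together in 113 where 29.5 were due (3.83 times, interval 3.16 to 4.61), and Pdcd1 and Entpd1 in 59 where 12.5 were due (4.70 times). Tox, the factor tied to exhaustion, was found with Pdcd1 in 137 cells where 62.1 were due (2.21 times, interval 1.85 to 2.61). In CD4-gated cells Pdcd1 and Lag3 stood at 11.1 times (interval 8.44 to 14.2), and at 13.1 times among those without Foxp3.

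In the CD8 gate 6 of the 8 pairs with Btla were found together less often than independence gives, 3 of them with an interval below 1. Pdcd1 and Btla were together in 4 cells where 20.1 were due (0.199 times, interval 0.0541 to 0.508), above independence in 0 of 8 libraries. Btla and Entpd1 were together in 5 where 16.6 were due (0.301 times, interval 0.0976 to 0.701), and Ctla4 and Btla in 31 where 45.2 were due (0.686 times, interval 0.466 to 0.974). In CD4-gated cells the same pairs stood at 1.48 (interval 1.04 to 2.04), 1.14 (0.653 to 1.85) and 1.22 (1.03 to 1.45). The CD4-gated and CD8-gated intervals of Pdcd1 with Btla do not meet; the difference itself was not tested. Btla with Lag3 (0.812), Tigit (0.627) and Havcr2 (0.406) had CD8-gated intervals that include 1. Btla and Cd160 went the other way, together in 38 CD8-gated cells where 27.4 were due (1.38 times, interval 0.980 to 1.90), above independence in 7 of 8 libraries. Btla and Tox were found together about as often as independence gives, 1.04 times in CD8-gated and 1.03 times in CD4-gated cells.

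**Figure D4:**
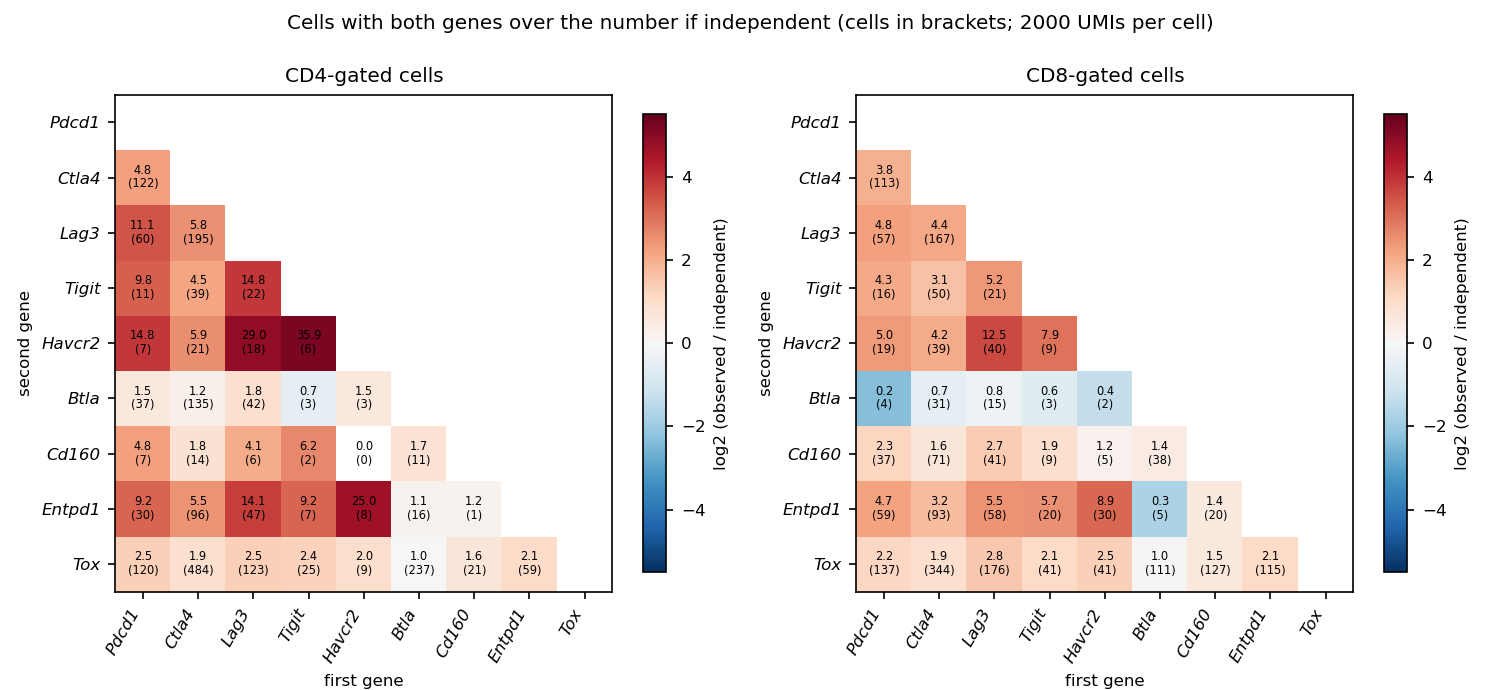
Cells with UMIs of both genes over the number if the genes were independent within each library, summed over 8 libraries, for the 36 pairs in CD4-gated and CD8-gated cells at 2000 UMIs per cell; colour is the log2 of that ratio and cells are in brackets. In the CD8 gate the row and column of Btla hold the blue squares, the lowest at 0.2 with Pdcd1, and Lag3 with Havcr2 is the darkest at 12.5.

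Cells with at least 2 of the genes made up 7.16% ± 2.86 of CD8-gated cells under PPCA and 4.14% ± 1.37 under vehicle (SD, n = 3 each). The libraries were at 5.49, 2.74 and 4.17% under vehicle on days 2, 3 and 4 and at 9.50, 3.98 and 8.01% under PPCA, so the arms overlapped while PPCA was higher on 3 of 3 days, by 4.02, 1.23 and 3.84 percentage points. The exact sign-flip permutation test over 3 days, two-sided, gave p = 0.25, the smallest it can give. In CD4-gated cells the shares were 6.78% ± 2.94 and 3.44% ± 0.284 (SD, n = 3 each), from 3.69, 3.13 and 3.49% under vehicle and 6.46, 4.01 and 9.87% under PPCA, which did not overlap. PPCA was higher by 2.77, 0.882 and 6.38 points, with the same exact permutation p of 0.25. For at least 3 of the genes the CD4-gated difference was -0.154 points on day 3, so that PPCA was higher on 2 of 3 days (exact permutation p = 0.5). Without thinning the CD8-gated shares were 16.4% and 13.1%. The active library was at 3.41% and the onset library at 7.50% of CD8-gated cells.

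**Figure D5:**
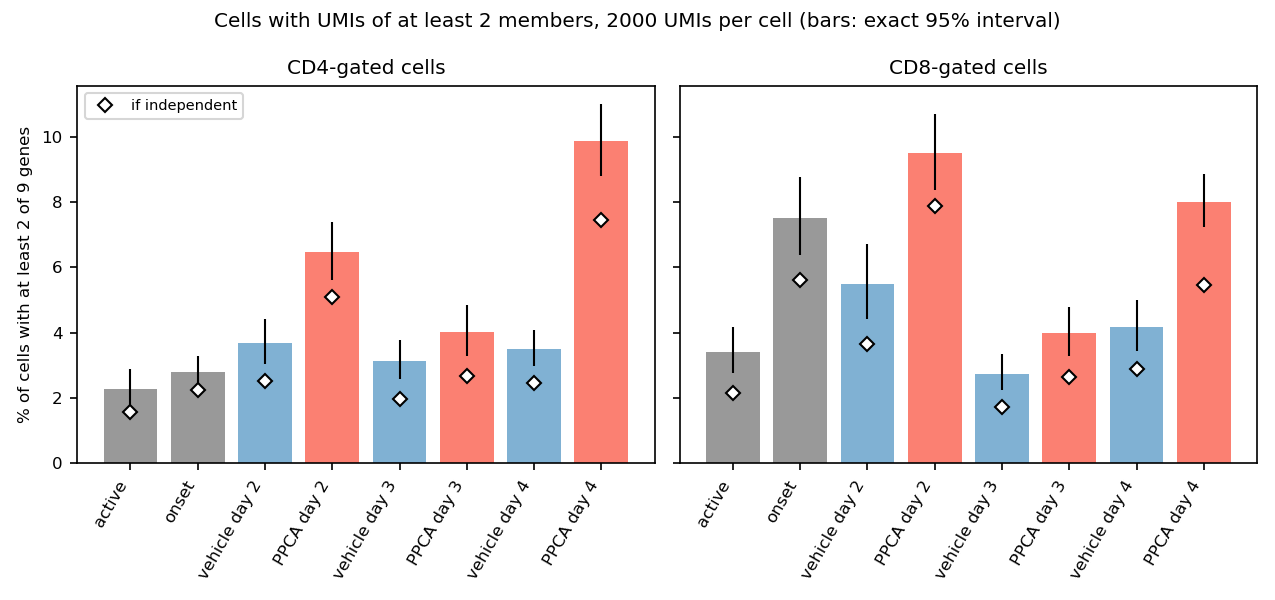
Share of CD4-gated and CD8-gated cells with UMIs of at least 2 of the 9 genes at 2000 UMIs per cell, by library (grey active and onset, blue vehicle, red PPCA), with exact 95% binomial intervals, and the share if the genes were independent (diamonds). Each bar stands above its diamond, and PPCA day 4 is the highest in the CD4 gate at 9.87%.

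CD8-gated cells with at least 2 of the genes also differed from cells with none in other genes. Among genes averaging at least 10 CPM, 1787 of 7424 (24.1%) were higher in all 8 libraries and 386 were lower in all 8; cells with more UMIs are more likely to show 2 of the genes, and these levels are CPM. The 10 with the highest mean log2 ratio were Penk, the enkephalin precursor (5.48, SD 1.16), Tox2, the relative of Tox (5.17, SD 0.84), Nrn1 (5.15, SD 0.75), the chemokine Ccl3 (4.72, SD 0.95), the cytotoxic protease Gzmb (4.56, SD 1.91), Chst2 (4.47), Adgrg1 (4.39), Klri2 (4.30), Rgs16 (4.29) and Cd200 (4.21), n = 8 libraries each. Tox2 stood at 14.1 to 73.2 CPM in cells with several of the genes and at 0.260 to 2.94 in cells with none, and Ccl3 at 165 to 540 against 3.01 to 27.4. The ranges of both genes did not overlap. In cells with none, Penk, Tox2, Nrn1, Chst2, Adgrg1 and Klri2 were at no more than 6.53 CPM in any library. They thus reached the average of 10 CPM only through the cells where they are high. Genes in the count of 1787 could enter in the same way. These ratios describe cells split by their own transcripts and carry no test.

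The authors' deposited table of genes marking their 7 cell clusters lists 5 of the 9, in 3 clusters. In the authors' deposited table Ctla4 marks the cluster named CD4 Treg, with a log2 fold change of 2.23 and detection in 63.2% of its cells, and Tox is listed there at 0.62. The cluster named CD8 TRM TEM is listed in the authors' deposited table with Ctla4 (0.76), Lag3 (0.67), Tox (0.65), Entpd1 (0.63) and Pdcd1 (0.61), Entpd1 being detected in 18.1% of its cells. Another cluster, named CD4 Th17, is listed in the authors' deposited table with Ctla4 (1.06), Lag3 (0.48) and Tox (0.27). Tigit, Havcr2, Btla and Cd160 are not among the entries of that table, whose lowest listed detection is 10.0% of a cluster's cells.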

How the data were processed

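Count matrices of UMIs per gene and cell were deposited by the authors for 8 libraries. Per the file headers they were written by Cell Ranger 6.0.0, while the submitters' processing notes name Cell Ranger 6.1.2 and Seurat. On the build and the gene annotation, not given in the sources used here, no assumption was made. The authors also deposited a table of cluster marker genes with log2 fold changes, the fraction of cells detecting a gene and adjusted p-values; these are quoted as deposited.

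Barcodes with at least 500 genes and at most 10% mitochondrial UMIs were kept (77486 of 80470), 6516 doublets called by Scrublet through scanpy 1.11.5 were removed at 0.8% per 1000 barcodes, and T cells were 99.1% of the rest. Cells with more than 1 UMI over 6 B cell and myeloid genes were left out of the T cells. UMIs were summed per library and gate and tested with edgeR 4.0.16 (quasi-likelihood, TMM scaling, R 4.3.3, Benjamini-Hochberg adjustment over all genes tested, threshold 0.05), with the day as a block for PPCA and the library as a block between gates. The PPCA fits had 2 residual degrees of freedom, and fewer with Xist status as a factor or with a day left out. Vehicle and PPCA libraries of 1 day deviated together (correlations of 0.248 to 0.545 in CD4-gated, 0.269 to 0.673 in CD8-gated and 0.17 to 0.394 in Foxp3-positive cells), so the day, given in the labels, was taken as pairing them. The day 2 vehicle library correlated more with PPCA day 3 (0.512, 0.327 and 0.233) than with PPCA day 2 (0.248, 0.269 and 0.17). DESeq2 1.42.0, limma 3.58.1 and the other settings were alternatives. On simulated counts in which 200 genes were changed 2-fold, the PPCA fits called 79% (CD4-gated), 74.5% (CD8-gated) and 77% (Foxp3-positive) of them. False calls were 16, 18 and 11 in the same order. In the measured CD4-gated counts, Lag3 at 2.04-fold and Tigit at 2.53-fold did not pass (adjusted p 0.645 and 0.739 by edgeR's quasi-likelihood test). Recovery at the levels and spread of the genes followed here was not tested, so the simulated shares are not taken to hold for them. Poisson and exact binomial intervals cover counting error only. Shares were taken after thinning to 2000 UMIs per cell.

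The genes, partner lists and marker lists were chosen with earlier results of these data known. All 9 genes are named in each comparison; each partner list is represented by at most 3 genes per direction, those furthest from 0 among the ones that passed (under PPCA by its highest and its lowest); genes of cells with several members are the 10 with the highest mean ratio, higher in all 8 libraries. Ctla4 and Entpd1 overlap other annotated genes on their own strand, and reads of these may not be told apart. Cd160 and Tox overlap a gene on the opposite strand. Alternatives were another scaling, no low-count filter, DESeq2, limma-voom, stricter gates, no doublet removal, no cell filter, no block, Xist status as a factor, and each library or day left out.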

Additional observations from a re-analysis of the deposited data

How the results depend on the processing

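PPCA against vehicle kept its direction for all genes tested in CD4-gated cells under each alternative. The count of genes past the threshold did not hold still. In CD4-gated cells it was 0, but 167 with no low-count filter, 34 by DESeq2 and 58 with Xist status as a factor, and 0 to 156 with 1 day left out; of the 9 genes 3 passed with no low-count filter. In CD8-gated cells it was 0, but 2 with DESeq2 size factors, with limma-voom or with gates of at least 2 UMIs, 125 with no low-count filter, 39 by DESeq2 and 145 with Xist status as a factor, and 0 to 193 with 1 day left out. Of the 9 genes, 3, 1 (DESeq2), 2 (Xist status) and 0 to 1 (a day left out) then passed. In Foxp3-positive cells it was 6, but 84 with no low-count filter, 11 with gates of at least 2 UMIs, 43 with Xist status as a factor and 0 with no replicate block, and 9 to 66 with 1 day left out; of the 9 genes 1 passed with no low-count filter, 1 with Xist status and 0 to 1 with a day left out. The interaction had 1 gene, 52 with no low-count filter (1 of the 9 genes), 0 with gates of at least 2 UMIs and 0 to 0 with a day left out.

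Between gates, 5322 genes differed between CD8-gated and CD4-gated cells and 2007 with no replicate block; 3138 differed with Foxp3, 1662 with gates of at least 2 UMIs and 1999 with no replicate block. With no doublet removal 1 of the 9 genes was past 2-fold between active and onset in Foxp3-positive cells. The exact permutation test of the shares without the day block gave p = 0.3 in CD8-gated and 0.1 in CD4-gated cells, where the smallest possible is 0.1.

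In several single genes the log2 value changed sign. Under PPCA, leaving out a day gave -0.01 to 1.19 for Havcr2 and -0.03 to 0.22 for Btla in CD8-gated cells, and -0.17 to 0.44 for Ctla4 and -0.03 to 0.41 for Tox in Foxp3-positive cells. Gates of at least 2 UMIs gave Btla -0.00 and Tox -0.13 there. Between CD8-gated and CD4-gated cells, those gates gave Pdcd1 -0.09 and Lag3 -0.08, and leaving out a library or day gave Tox -0.10 to 0.07 (0.01 without PPCA day 4). In the interaction, leaving out a day gave -0.60 to 0.37 for Ctla4, -0.60 to 0.10 for Tigit, -2.06 to 0.60 for Havcr2, -0.66 to 0.76 for Entpd1 and -0.11 to 0.06 for Tox (0.03 without day 2). Btla there was at 0.03 without day 4, and Pdcd1 at -0.25 without day 2 and -0.18 without day 3. Pdcd1 was also at -0.09 by DESeq2, -0.02 with no doublet removal and -0.01 with no cell filter, Entpd1 at -0.06 by DESeq2, and Tox at 0.01 with no low-count filter, 0.03 with no doublet removal and 0.02 with no cell filter. The cause was not tested. Each arm held 3 libraries, and 2 with a day left out.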
